A study of Mus musculus with 9 samples.

Results

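The genes described here encode the enzymes that make and break down the endocannabinoids and the CB1 cannabinoid receptor, in fluorescent amygdala neurons of mice that differ in approach and avoidance behavior. They are Napepld, Faah, Dagla, Daglb, Mgll, Abhd6 and Cnr1, chosen by gene symbol as 7 of the 12275 genes listed in the expression tables. All 7 were listed in the table of BA and AP mice, which holds 11820 genes, and 6 were listed in the table of BA and AV mice, which holds 9872 genes. Cnr1 was listed only in the former.

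Endocannabinoids are lipid messengers made on demand in the membrane of the neuron that receives a synapse, and they travel backwards to CB1 receptors on the terminal of the sending cell, where they lower transmitter release. There are 2 main ones. Anandamide is released from its phospholipid precursor by the enzyme NAPE-PLD and is hydrolysed by fatty acid amide hydrolase (FAAH), while 2-arachidonoylglycerol (2-AG) is made by diacylglycerol lipases alpha and beta and is hydrolysed mainly by monoacylglycerol lipase, with a smaller part left to ABHD6. In the amygdala this system is known for its part in fear and anxiety, and CB1 receptors there are found mostly on terminals of inhibitory interneurons, with lower levels at excitatory synapses and in astrocytes.

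All mice carried the transgene B6.Cg-Tg(Thy1-YFP)HJrs/J, in which the Thy1 promoter drives a yellow fluorescent protein in pyramidal neurons of the amygdala, hippocampus and deep cortex. In a Y-maze that set palatable food in a lit white arm against a dark arm, mice were classed as balancing (BA), avoiding (AV) or approaching (AP), and no other treatment set the groups apart. One month later the amygdala of each mouse was dissociated, YFP-positive viable cells were sorted, and their RNA was sequenced as 1 library per mouse, with 3 mice in each group. One AV mouse, replicate 2, had been left out by the authors as an outlier, so AV values come from 2 mice, replicates 1 and 3. The same 3 BA mice serve in both tables. Age and sex of the mice are not given in the sources used here.

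The values are a normalized signal for each gene and mouse, not read counts, and each table was normalized separately, so that for the 6 genes listed in both the values of BA mice in the AV table were between 0.758 and 0.942 times those in the AP table. In the AP table most low values lie on equal steps above an offset of 2, with 1 step worth between 0.708 and 1.23, so the reads behind a gene can be counted back. These steps gave 3817185 to 6720887 reads per mouse over the genes listed in that table, which is not the depth of the whole library. The floor was taken as 3 reads, which correspond to values of 4.13 to 5.68. Reads were not counted back for the AV table. A step matched 78.0% to 86.4% of low values, depending on the mouse.

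The sorted label was not borne out by all of its markers. Slc17a7, the vesicular glutamate transporter that defines most amygdala pyramidal neurons, and Snap25, a pan-neuronal synaptic gene, were listed in neither table, and only 2 of 8 excitatory neuron markers, Nrgn and Camk2a, were listed. The 9 oligodendrocyte markers took 5.12% to 6.34% of all values in BA and AP mice but 1.75% and 2.57% in the AV mice. In bulk RNA of this kind, fewer cells of a type and less RNA per cell cannot be told apart.

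The sequence upstream of the start was examined for each gene, since the upstream stretch is where general promoter elements can be read. RefSeq promoters of GRCm38.p6 were found for 6 of the 7 genes, as the 250 bases before an annotated start, and Dagla had no entry. Cnr1 had 3 such starts and Mgll and Abhd6 had 2 each. Only the start nearest that of GENCODE was searched, which for Napepld lay 226 bases from it. Those of 4 genes are shown here because they stand for the steps that the results turn on: anandamide synthesis and hydrolysis, 2-AG hydrolysis and the receptor. Capitals mark matches to the motifs searched, which were GGGCGG (the GC box), TGACGTCA (the cyclic AMP response element), CCAAT (the CCAAT box), TATAAA (the TATA box), TGANTCA (the AP-1 site) and CACGTG (the E-box), on both strands. The lines give Napepld at chr5:21701623-21701872 on the minus strand, Faah at chr4:116017925-116018174 on the minus strand, Mgll at chr6:88724162-88724411 on the plus strand and Cnr1 at chr4:33924394-33924643 on the plus strand.
Napepld: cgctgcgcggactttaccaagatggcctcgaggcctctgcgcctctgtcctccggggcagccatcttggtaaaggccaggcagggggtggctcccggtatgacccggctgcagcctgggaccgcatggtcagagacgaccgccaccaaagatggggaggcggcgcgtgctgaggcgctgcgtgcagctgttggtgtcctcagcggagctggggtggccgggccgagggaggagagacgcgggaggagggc
Faah: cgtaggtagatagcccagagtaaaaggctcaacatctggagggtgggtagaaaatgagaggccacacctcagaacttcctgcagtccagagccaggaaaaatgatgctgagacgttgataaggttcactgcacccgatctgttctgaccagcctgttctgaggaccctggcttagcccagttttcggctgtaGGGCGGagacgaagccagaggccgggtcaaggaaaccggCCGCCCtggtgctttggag
Mgll: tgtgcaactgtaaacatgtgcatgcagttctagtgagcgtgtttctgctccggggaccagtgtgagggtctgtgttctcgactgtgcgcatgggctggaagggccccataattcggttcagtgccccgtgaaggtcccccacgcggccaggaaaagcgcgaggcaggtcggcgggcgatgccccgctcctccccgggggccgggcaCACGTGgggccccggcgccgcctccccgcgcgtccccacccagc
Cnr1: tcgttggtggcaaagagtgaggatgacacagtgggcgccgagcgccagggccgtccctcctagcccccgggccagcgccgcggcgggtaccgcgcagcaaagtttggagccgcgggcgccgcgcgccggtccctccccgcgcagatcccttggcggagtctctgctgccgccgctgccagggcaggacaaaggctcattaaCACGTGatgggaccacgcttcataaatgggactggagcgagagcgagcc

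None of the 6 promoters searched held a TATA box, an AP-1 site or a cyclic AMP response element. These are found in 12.4%, 6.75% and 1.55% of the 32851 promoters of the table. Faah had 2 matches to the GC box, one on each strand, a motif of 32.7% of promoters. Mgll and Cnr1 each had 1 CACGTG, which 6.02% of promoters hold, and Abhd6 had 1 CCAAT, held by 33.8%. Napepld and Daglb had no match. CpG dinucleotides numbered 21 in Napepld, 23 in Mgll, 28 in Cnr1 and 18 in Abhd6, against a median of 6 over all promoters, while Faah and Daglb each had 9. These counts describe the letters in the window and were not tested against expression.

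Within the BA mice, which served as the reference of both comparisons, the 7 genes were compared by signal divided by exon length in kilobases. In the AP table, Mgll with 37.5 ± 1.24 per kb (SD, n = 3), Napepld with 35.9 ± 6.89 and Abhd6 with 34.9 ± 6.39 were highest, and their ranges overlapped. Faah with 18.9 ± 2.78 and Daglb with 18.7 ± 4.13 came next and overlapped each other. Dagla followed at 11.1 ± 3.70, and Cnr1 was lowest at 2.205 ± 0.84, with its highest BA mouse at 3.17 per kb and the lowest Dagla value at 7.02. For the same mice in the AV table, the ranges of Daglb and Dagla overlapped. In the AP table the hydrolase Mgll had the lowest coefficient of variation among BA mice, 3.31%, whereas Dagla and Cnr1 varied by 33.3% and 38.2%. For the same mice in the AV table it was 7.73% for Mgll. Counting error alone gives the 170 reads of Mgll in BA mouse 1 an exact Poisson interval of 145.4 to 197.6. That is wider than the spread of Mgll, so its low value does not show a steady gene. Cnr1 rested on 9, 18 and 7 reads in BA mice 1, 2 and 3, each of the other 6 genes on at least 36 reads in every mouse. With the length of the longest transcript in place of all exons, 3 of the 7 genes held the same rank.

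**Figure D1:**
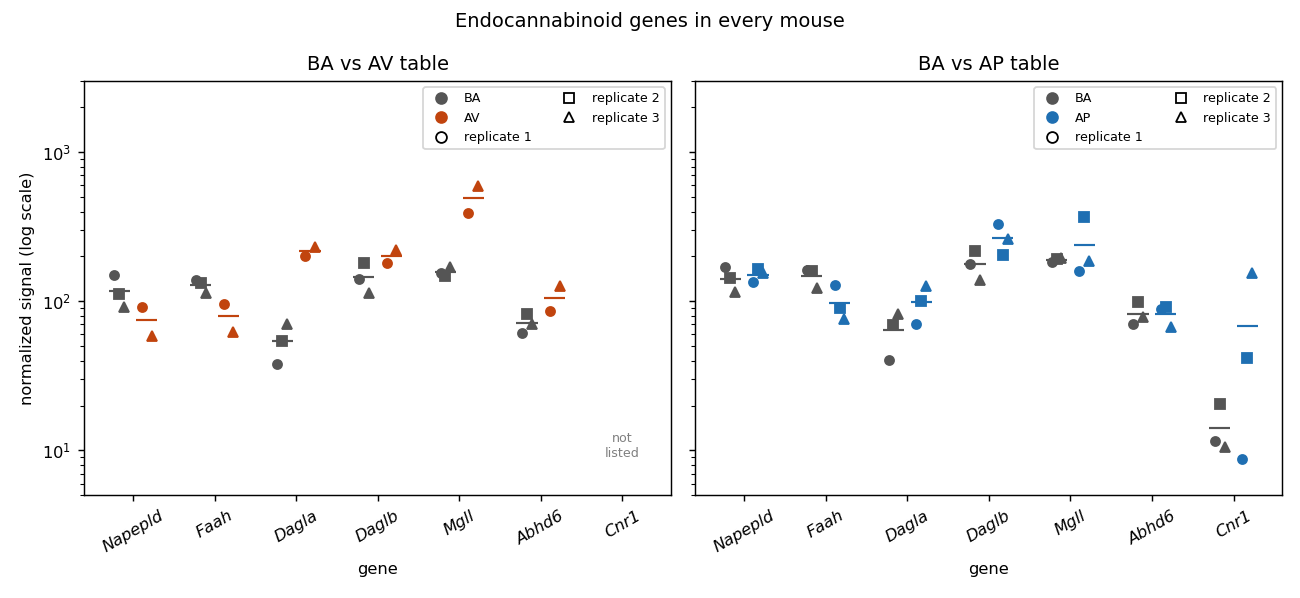
Normalized signal (log axis) of the 7 genes in each mouse, in the BA vs AV table (left) and the BA vs AP table (right); each symbol is a mouse and each short line the group mean. Dagla and Mgll of both AV mice lie above every BA mouse, and Cnr1 spans from 8.82 to 156 among the 3 AP mice.

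The first comparison asked which of these genes differ between avoiding and balancing mice. In AV mice, the 2-AG enzymes Dagla and Mgll were 4.05-fold and 3.04-fold higher than in BA mice, and they were the 2 of 6 listed genes that were called, a call that centring on astrocyte, microglia or pan-neuronal markers ended. Napepld and Faah, the pair of anandamide genes, had lower values in both AV mice but were not called, and Daglb and Abhd6 had higher values and were not called. A gene counted as called where its p, adjusted by Benjamini-Hochberg, was under 0.05 in a limma fit of log2(value + 1) to the whole table, and log2 fold changes below are differences on that scale, positive where AV or AP mice are higher. Of all 9872 genes, 29.7% were called in this comparison, 13.6% as higher and 16.2% as lower in AV mice, 43.2% had an unadjusted p under 0.05 and 48.5% a positive log2 fold change. The values of AV and BA mice did not overlap for any of the 6 genes, while 58.9% of all genes showed no overlap, 27.7% with AV mice above and 31.3% with AV mice below, so that a lack of overlap is the common case in this comparison.

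Napepld encodes the phospholipase D that releases anandamide from membrane phospholipids (ENSMUSG00000044968.16, chr5:21662901-21701396, minus strand, GRCm38). Its value was 149, 113 and 92.1 in BA mice 1 to 3 and 91.6 and 58.2 in AV mice 1 and 3. BA mouse 3 and AV mouse 1 were nearly level, so the groups were separated by less than 1 unit, and only AV mouse 3 stood well below. The fitted log2 fold change was -0.66 (SE 0.31, 95% confidence interval -1.39 to 0.080), with a limma adjusted p of 0.153. Without AV mouse 1 it was -0.98, with a limma adjusted p of 0.0471, and without AV mouse 3 it was -0.33; in such fits the lone AV mouse is assumed to vary like the BA mice, which alone give the spread.

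Faah encodes the membrane hydrolase that ends anandamide signalling (ENSMUSG00000034171.13, chr4:115967145-116017926, minus strand). BA mice 1 to 3 had values of 139, 132 and 113, and AV mice 1 and 3 had 96.4 and 61.9. Both AV mice lay below all BA mice, again with AV mouse 3 the lower. The log2 fold change was -0.71 (SE 0.27, 95% confidence interval -1.35 to -0.079) and the limma adjusted p was 0.0855. Without AV mouse 1 the value was -1.03, with an adjusted p of 0.0227, and without AV mouse 3 it was -0.40, again with a single AV mouse in the fit. Among all genes, 21.9% had a lower log2 fold change than Faah and 23.6% a lower one than Napepld.

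Dagla encodes the diacylglycerol lipase that makes most 2-AG at synapses of the adult brain (ENSMUSG00000035735.10, chr19:10245265-10304877, minus strand). Its values were 38.0, 54.3 and 70.9 in BA mice 1 to 3 and 202 and 232 in AV mice 1 and 3. The 2 AV mice were close to each other and the lower one was 2.85 times the highest BA mouse. The log2 fold change was 2.02 (SE 0.30, 95% confidence interval 1.299 to 2.74, limma adjusted p = 0.00531), and 97.6% of all genes had a lower one. The related lipase Daglb, which is known for 2-AG synthesis in microglia and other immune cells (ENSMUSG00000039206.13, chr5:143464584-143505942, plus strand), gave 140.4, 181 and 114 in BA mice and 182 and 219 in AV mice. AV mouse 1 and BA mouse 2 were level within 1 unit, and the log2 fold change of 0.48 (SE 0.27, 95% confidence interval -0.16 to 1.12) had a limma adjusted p of 0.215.

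Daglb shares sequence with a neighbor on the other strand. Of its exon bases, 2309 lie opposite exons of Rac1, a small GTPase gene on the other strand, and 24.3% of its 31-base words occur in Rac1 transcripts in the opposite orientation. The libraries were stranded, but the strand setting of the quantification is not given in the sources used here. Rac1 had a mean value of 1688 in BA and 1575 in AV mice, far above Daglb, with a log2 fold change of -0.093 that was not called. Abhd6 shared 10.3% of its words with the unlisted gene model Gm1833, and for the other 5 genes the share on the same strand was below 0.5%.

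Mgll encodes monoacylglycerol lipase, the main 2-AG hydrolase of brain (ENSMUSG00000033174.17, chr6:88724412-88828360, plus strand). BA mice 1 to 3 had values of 155, 147 and 171, and AV mice 1 and 3 had 390.4 and 590. The BA mice lay within 24.0 units of each other, and both AV mice were far above them. Its fitted log2 fold change was 1.60 (SE 0.26, 95% confidence interval 0.99 to 2.21, limma adjusted p = 0.00633), higher than that of 94.7% of genes. Abhd6 encodes the second 2-AG hydrolase, which sits on the side of the receiving neuron (ENSMUSG00000025277.14, chr14:8002902-8056763, plus strand), and had 61.3, 82.8 and 70.1 in BA mice and 85.5 and 126 in AV mice. AV mouse 1 was only 2.72 units above BA mouse 2, and the log2 fold change of 0.54 (SE 0.27, 95% confidence interval -0.090 to 1.18) had a limma adjusted p of 0.165.

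Dagla and Mgll were called whichever of the 5 mice was left out, with log2 fold changes from 1.79 to 2.23 for Dagla and from 1.31 to 1.90 for Mgll, though leaving out an AV mouse sets a single AV mouse against a spread from BA mice alone. An exact two-sided permutation test of each gene alone, which doubles the smaller tail, gave p = 0.2 for all 6 genes. That is the smallest value this test can give with 3 against 2 mice. Marker genes of other cells also differed between these groups. The summed value of the 8 listed astrocyte markers was 10428 to 16123 in BA mice and 31597 and 61480 in AV mice, and all 8 were higher in AV mice, 4 of them called. The 9 oligodendrocyte markers were all lower, 7 called, with sums of 205270 to 252140 in BA mice and 57196 and 88576 in AV mice. The 2 listed excitatory neuron markers were both called as higher, with Camk2a, the neuronal kinase gene, at 55.3 to 77.3 in BA mice and 1656 and 2965 in AV mice. All 3 listed microglia markers of 11 were called as higher as well.

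When the log2 values of each mouse were centred on the 8 astrocyte markers, every gene moved by -1.14. The log2 fold change of Dagla was then 0.88 (limma adjusted p = 0.121) and that of Mgll 0.46 (adjusted p = 0.414). Napepld and Faah were called as lower under it, at -1.80 (limma adjusted p = 0.00232) and -1.85 (adjusted p = 0.00165). Of all 9872 genes, 5324 were called under this centring, and only 2.84% of those calls were higher in AV mice. Centred on the 3 listed pan-neuronal markers, which moved every gene by -1.77, Dagla was at 0.24 (adjusted p = 0.560) and Mgll at -0.17 (adjusted p = 0.685), so neither was called and the sign of Mgll turned. Under that centring the other 4 genes were called as lower, Napepld at -2.43, Faah at -2.49, Daglb at -1.29 and Abhd6 at -1.23. So were most genes: 8335 of 9872 were called under it, and 0.756% of those calls were higher in AV mice. Centred on the 9 oligodendrocyte markers, which moved every gene by 1.65, Napepld and Faah instead had positive values of 0.99 and 0.94. The part of cell makeup in any of these differences was not tested. The order of the 6 fold changes is the same under each centring, because each moves all genes alike.

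**Figure D2:**
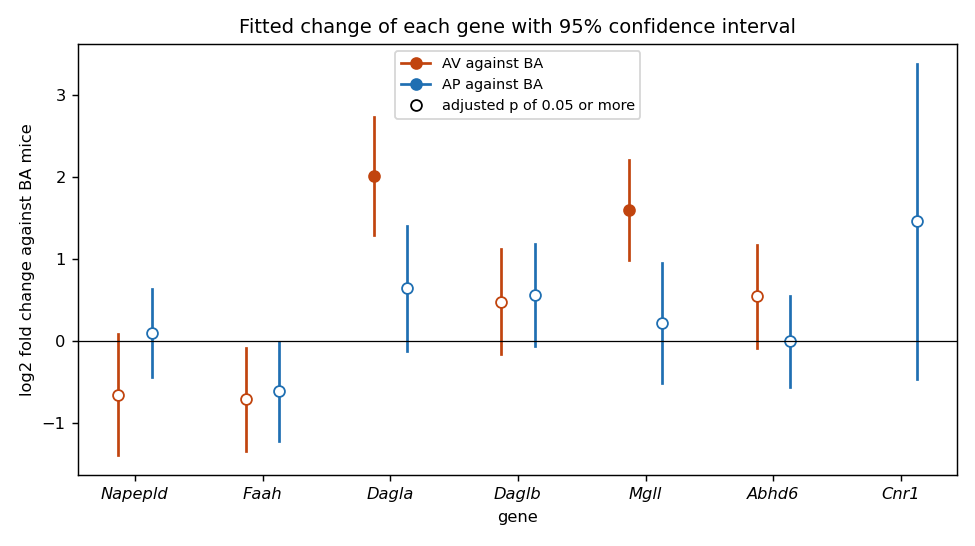
Log2 fold change of each gene against BA mice as fitted by limma, with its 95% confidence interval as a vertical line, for AV mice (orange) and AP mice (blue); filled points have an adjusted p under 0.05. Dagla at 2.02 and Mgll at 1.60 in AV mice are the filled points, both on the deposited scale, and with centring on the 3 pan-neuronal markers Mgll turns to -0.17.

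The second comparison asked the same of approaching mice. Between AP and BA mice none of the 7 genes was called, and the values of the groups overlapped for all 7. Of all 11820 genes, 0.00846% were called by limma, which is 1 gene, 7.77% had an unadjusted p under 0.05, 12.1% had groups that did not overlap, 5.64% with AP mice above and 6.45% with AP mice below, and 46.5% had a positive log2 fold change. Faah was the only member with an unadjusted p under 0.05. The widest spread was that of Cnr1 within the AP group itself.

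Of the anandamide genes, Napepld had 169, 142 and 115 in BA mice 1 to 3 and 134, 164 and 156 in AP mice 1 to 3, with the AP mice all inside the BA range. Its log2 fold change was 0.099 (SE 0.23, 95% confidence interval -0.44 to 0.63, limma adjusted p = 0.919). Faah had 163, 159 and 123 in BA mice and 128, 90.5 and 75.5 in AP mice. AP mice 2 and 3 were below every BA mouse and AP mouse 1 lay between BA mouse 3 and the other BA mice. For Faah the log2 fold change was -0.62 (SE 0.26, 95% confidence interval -1.22 to -0.011), with an unadjusted p of 0.0468 and a limma adjusted p of 0.638. Behind the lowest value, that of AP mouse 3, stood 68 reads, with an exact Poisson interval of 52.8 to 86.2, and behind BA mouse 1 stood 151 reads, with an interval of 127.9 to 177.1; such intervals cover counting error only.

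Among the 2-AG genes, Dagla had 40.4, 69.6 and 81.7 in BA mice and 70.2, 100.5 and 126 in AP mice. AP mice 2 and 3 were above all BA mice and AP mouse 1 was level with BA mouse 2. Its fitted log2 fold change was 0.64 (SE 0.33, 95% confidence interval -0.12 to 1.40, limma adjusted p = 0.696). Daglb had 178, 218 and 139 in BA mice and 331, 203 and 260.5 in AP mice, where AP mouse 1 was the highest, whereas for Dagla it was the lowest of the AP mice. Its log2 fold change was 0.56 (SE 0.27, 95% confidence interval -0.063 to 1.19, limma adjusted p = 0.683).

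Mgll had 183, 194 and 194 in BA mice and 160, 366 and 187 in AP mice. A single mouse, AP mouse 2, stood apart with 514 reads, and the other 2 AP mice lay near or below the BA mice. The log2 fold change of 0.22 (SE 0.32, 95% confidence interval -0.51 to 0.95, limma adjusted p = 0.865) turned to -0.14 without AP mouse 2. Abhd6 had 70.2, 99.4 and 78.0 in BA mice and 88.4, 92.0 and 66.9 in AP mice, with a log2 fold change of -0.00032 (SE 0.24, 95% confidence interval -0.56 to 0.55). Its group means of 82.5 and 82.4 were the closest of the 7 genes.

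Cnr1 encodes the CB1 receptor, the target of both lipids on presynaptic terminals (ENSMUSG00000044288.6, chr4:33924593-33948831, plus strand). It had 11.6, 20.4 and 10.6 in BA mice 1 to 3 and 8.82, 41.7 and 156 in AP mice 1 to 3. AP mouse 1 was the lowest of all 6 mice, and AP mouse 3 was the highest, at 1095% of the BA mean. In reads this was 6 (exact Poisson interval 2.2 to 13.1) in AP mouse 1, 56 (42.3 to 72.7) in AP mouse 2 and 142 (119.6 to 167.4) in AP mouse 3. The log2 fold change of 1.46 (SE 0.84, 95% confidence interval -0.46 to 3.39) had a limma adjusted p of 0.708. It ranged from 0.49 without AP mouse 3 to 2.48 without AP mouse 1. The exact two-sided permutation p was 0.4 for Cnr1, 0.2 for Faah, Dagla and Daglb, 0.7 for Napepld, 0.9 for Mgll and 1.0 for Abhd6, where 0.1 is the smallest that 3 against 3 mice allow.

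Marker genes of several cell types differed between the same mice. Camk2a, an excitatory neuron gene, was at 77.0, 843 and 1401 in AP mice 1 to 3 and between 64.9 and 98.3 in BA mice, and Nrgn was at 5.41, 113 and 397 in AP mice, the same order as Cnr1 and Dagla and the reverse of that of Faah. Of 9 inhibitory neuron markers only 2 were listed here, and Cck was not among them. Gad2, a defining gene of inhibitory neurons, was at 21.1, 42.4 and 26.6 in AP mice 1 to 3 and 17.96 to 63.1 in BA mice. Adarb2, the other, was at 92.6, 46.5 and 44.1 in AP mice 1 to 3 and 59.9 to 86.7 in BA mice. Which cells the Cnr1 reads came from was not tested. For Mgll, the astrocyte genes Slc1a2 and Aqp4 were highest in the same mouse, AP mouse 2, at 37976 and 1715, against 5919 and 401 in AP mouse 1. The 9 listed astrocyte markers summed to 13163 to 18232 in BA mice and to 10501 to 54253 in AP mice, with 8 of 9 above 0 in log2 fold change and none called. All 11 microglia markers had higher values in AP mice, with sums of 1583 to 3202 in BA and 4333 to 7807 in AP mice and none called. The part of such cells in the members' values was not tested.

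**Figure D3:**
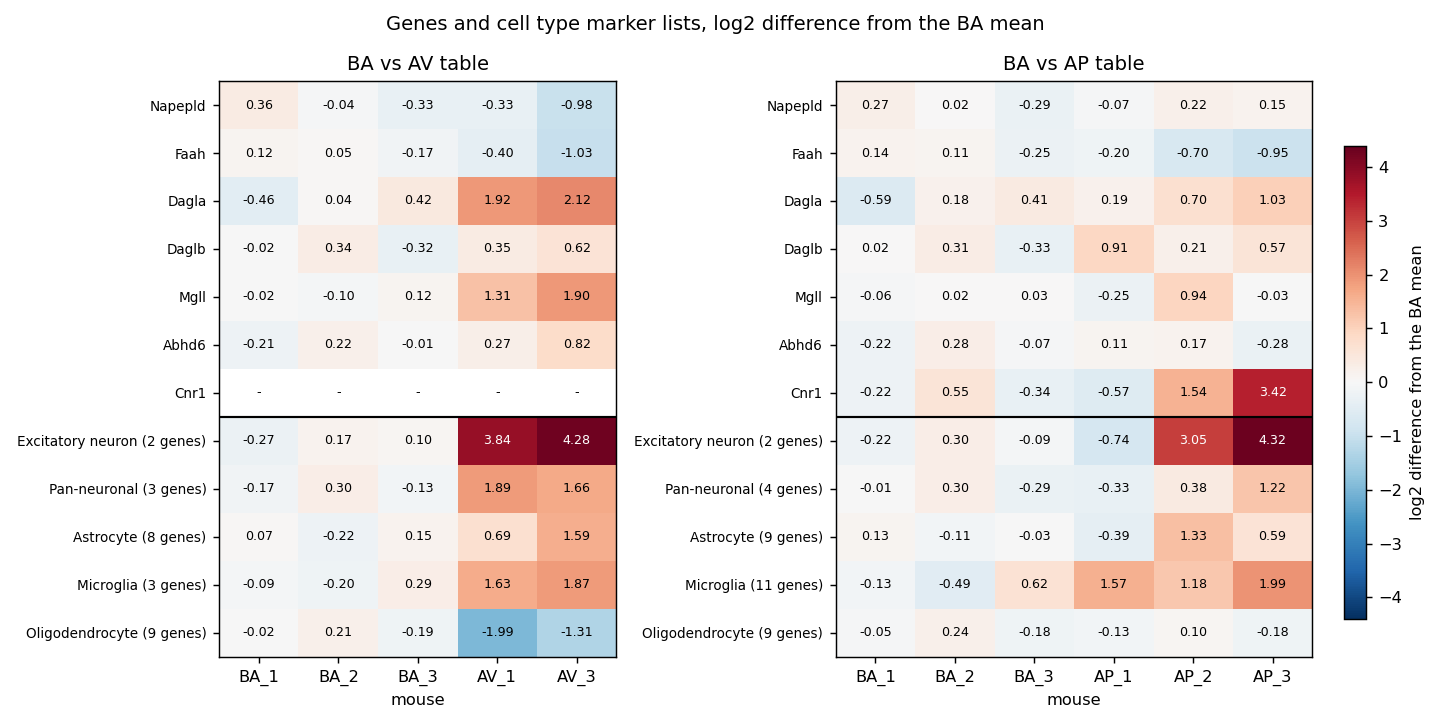
Log2 difference from the BA mean of the same table for each gene (upper rows) and for the mean of each marker list (lower rows) in every mouse, by color and as printed numbers; a dash marks a gene that is not listed. In AP mice the printed values of Cnr1 (-0.57, 1.54 and 3.42) run in the order of the excitatory neuron list (-0.74, 3.05 and 4.32), and Mgll and the astrocyte list are both highest in AP mouse 2 (0.94 and 1.33).

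The genes most like each member over the mice of a table were taken as those with the smallest root mean square difference between log2 profiles, each centred on its own mean, among genes averaging 50 or more in that table. Cnr1, over 6 mice, was closest to Bsn, which encodes the presynaptic scaffold protein bassoon, at a distance of 0.26, and to Rab3c, a gene of synaptic vesicle trafficking, at 0.30. Its distance to the nearest member, Dagla, was 1.07. In the same table Mgll was closest to Gpr37l1, a receptor gene of astrocytes, at 0.059, and to Slc4a4, the sodium bicarbonate cotransporter gene, at 0.085. Dagla was closest to Gpx1, a glutathione peroxidase gene, in both tables, at 0.091 over 5 mice in the AV table and at 0.12 over 6 mice in the AP table; both hold the same BA mice.

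In the AV table, over 5 mice, Mgll was closest to Snn at 0.067 and to Rpl10a, a ribosomal protein gene, at 0.070, and Dagla after Gpx1 to Serpinh1, a collagen chaperone gene, at 0.10. Napepld was nearest to Zfp12 at 0.042 and Faah to Lrp12 at 0.046. The pair Napepld and Faah lay 0.14 apart there, the closest 2 members, and Dagla and Mgll 0.34 apart. Over the 6 mice of the AP table Napepld and Faah were not each other's nearest members, as each was closer to Abhd6, at 0.30 and 0.39. These distances describe a few mice that share a group structure and sorting, and carry no test.

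The balance of synthesis and degradation was taken within each mouse as a difference of log2 values, which leaves the scaling of that mouse out. For anandamide it was log2 Napepld less log2 Faah. In the AV table this was 0.11, -0.22 and -0.29 in BA mice 1 to 3 and -0.072 and -0.088 in AV mice 1 and 3, so both AV mice lay inside the BA range, and the difference of group means was 0.057. Beside AP mice it was 0.055, -0.16 and -0.10 in BA mice and 0.062, 0.85 and 1.03 in AP mice. AP mice 2 and 3 were clearly above the BA mice and AP mouse 1 was above BA mouse 1 by only 0.0069, and the group means differed by 0.71. The Napepld values of AP mice stayed inside the BA range, and the Faah values of AP mice 2 and 3 lay below it.

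For 2-AG, the balance was the mean log2 value of Dagla and Daglb less that of Mgll and Abhd6. In the AV table it was -0.41, -0.15 and -0.28 in BA mice and 0.065 and -0.27 in AV mice, with overlapping groups and a difference of 0.18. Dagla and Mgll were both called as higher in AV mice, one on each side of this balance. With summed values in place of mean logs the difference was -0.28, with the opposite sign. Against AP mice the balance was -0.41, -0.17 and -0.21 in BA mice and 0.36, -0.36 and 0.69 in AP mice, and AP mouse 2, with its high Mgll, was the one inside the BA range.

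Dagla and Mgll were called in AV mice, and Daglb and Abhd6 were not. The differences within each side of the 2-AG balance therefore restate the fold changes above. Dagla less Daglb was -1.86, -1.72 and -0.68 in BA mice 1 to 3 and 0.15 and 0.083 in AV mice 1 and 3, a difference of 1.54 without overlap. Mgll less Abhd6 was 1.33, 0.82 and 1.27 in BA mice and 2.18 and 2.22 in AV mice, a difference of 1.06 without overlap. The AV mice were above every BA mouse in both. In AP mice both overlapped the BA mice, with differences of 0.081 and 0.22. The 4 2-AG genes less the 2 anandamide genes, as means of log2 values, were -0.76, -0.22 and -0.037 in BA mice against 0.99 and 2.03 in AV mice, and in the AP table -0.75, -0.20 and -0.053 against 0.041, 0.41 and 0.39. This difference did not overlap in either table, and the tables share their BA mice. Of single genes, 58.9% showed no overlap in the AV comparison and 12.1% in the AP comparison. Those shares are not the background of a difference between means of several genes, which was not computed for other gene sets. The part of cell makeup in these differences was not tested. Cnr1 less the 4 2-AG genes was -3.79, -1.93 and 0.12 in AP mice 1 to 3, below, above and far above the BA mice, whose mean was -2.97 ± 0.35 (SD, n = 3).

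**Figure D4:**
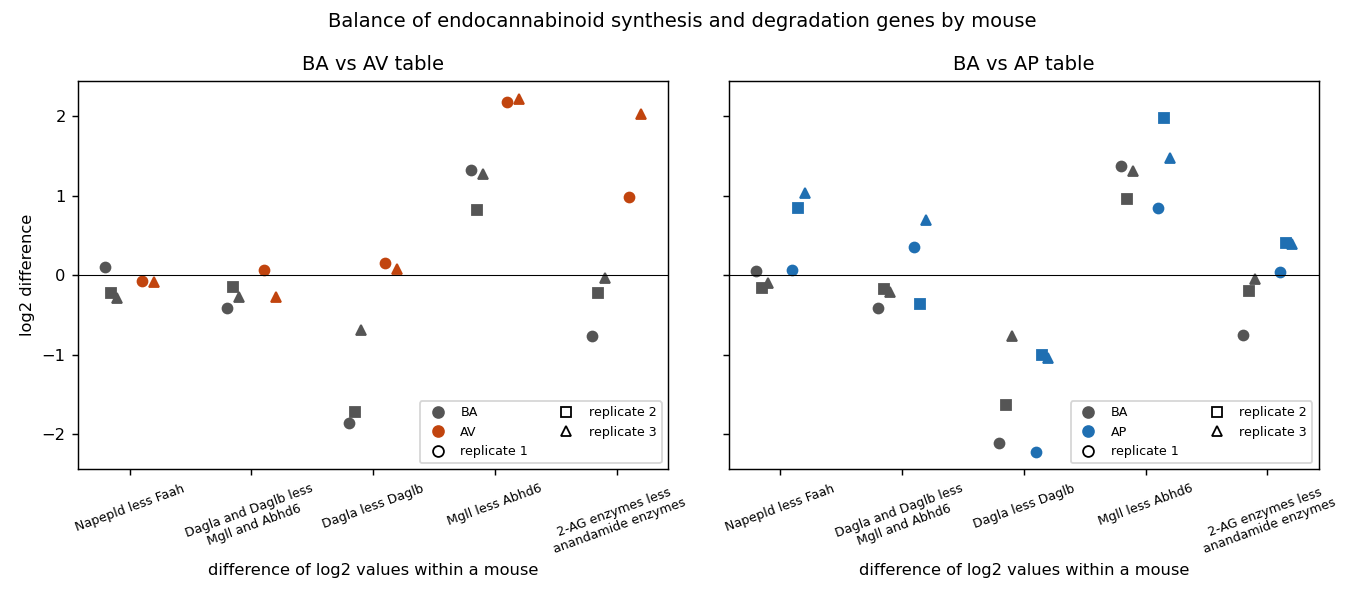
Differences of log2 values within each mouse for the anandamide genes, the 2-AG genes, the 2 lipases that make 2-AG, the 2 that hydrolyse it, and all 2-AG genes less both anandamide genes, in the BA vs AV table (left) and the BA vs AP table (right). In AV mice Dagla less Daglb and Mgll less Abhd6 lie above every BA mouse while both balances overlap, and in AP mice the anandamide balance reaches 0.85 and 1.03.

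Per kilobase, the order of the genes in AV mice was therefore another than in BA mice of the same table. In AV mice Mgll was highest at 96.5 ± 27.8 (SD, n = 2), followed by Abhd6 at 44.7 ± 12.05 and Dagla at 37.8 ± 3.73, whose ranges overlapped. Daglb at 20.95 ± 2.77 and Napepld at 18.9 ± 5.98 overlapped too, and Faah was last at 10.1 ± 3.11. In BA mice Mgll at 31.1 ± 2.40 (SD, n = 3), Abhd6 at 30.2 ± 4.58 and Napepld at 29.8 ± 7.33 overlapped at the top, and Dagla at 9.46 ± 2.86 was last. Dagla was thus below Faah and Napepld in every BA mouse and above both in both AV mice.

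Around these genes, 56 others of the pathway were followed in 6 lists by role. Of the 56, 31 were listed for AV mice, and 12 were called, 11 as higher and 1 as lower in AV mice, that is against a background of 29.7%. Their median log2 fold change was 0.30, beside -0.026 over all genes. For AP mice 37 were listed and none was called by limma; 3 had an unadjusted p under 0.05, and the median was 0.10 beside -0.032. The genes named from these lists are those with the largest rise and fall, and a few more that were picked after their values were seen.

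The list that supplies 2-AG synthesis with its diacylglycerol precursor held receptors, G proteins and phospholipases C. In the AV comparison 8 of its genes were listed and 5 were called as higher, beside 13.6% of all genes, and the median log2 fold change of the 8 was 1.07. Homer2, a scaffold gene that ties metabotropic glutamate receptors to their effectors, had 46.4, 54.8 and 62.1 in BA mice and 297 and 488 in AV mice, which gave a fitted difference of 2.79 on the log2 scale (SE 0.29, limma adjusted p = 0.00314). Grm5, the metabotropic glutamate receptor gene upstream of Dagla, followed at 2.08, then Plcb1 at 1.22, Homer1 at 0.95 and Gna11 at 0.94. Centring on the 3 pan-neuronal markers moves all of these by -1.77, which takes Plcb1, Homer1 and Gna11 below 0. For AP mice 9 genes of the list were listed, 6 with positive and 3 with negative values, at a median of 0.36, and Plcb4 had the lowest value, -0.38 (limma adjusted p = 0.718).

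Among the other hydrolases and oxidases, 3 of 6 listed genes were called in AV mice, beside 29.7% of all genes. Naaa, the acid amidase that hydrolyses anandamide and related amides, was higher by a log2 fold change of 1.45 and Abhd12, a further 2-AG hydrolase, by 1.01. Centring on the 3 pan-neuronal markers moves both by -1.77, to below 0. Lipe, the hormone-sensitive lipase, was lower, with 129, 139 and 113 in BA mice and 12.6 and 62.0 in AV mice and a log2 fold change of -2.12 (limma adjusted p = 0.0350). Ddhd1, a phospholipase gene, had the next lowest value at -0.75 (adjusted p = 0.0899). Alox5, the leukotriene-forming oxygenase gene of immune cells, had the second highest value at 2.28 (adjusted p = 0.112), which came from AV mouse 1 with 200 while AV mouse 3 had 23.0, inside the BA range of 5.06 to 24.2. In AP mice Alox5 was at 28.9 to 37.2 against 5.20 to 26.6 in BA mice, where the lowest BA value is that of 3 reads, and Lipe had the lowest value of the lists at -0.45; neither was called.

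The 10 genes of CB1 partners and effectors were all listed in both tables. In AV mice 3 were called, close to the 29.7% of all genes, and all 3 were higher, as were 13.6% of all genes. They were the arrestins Arrb1 at 1.99 and Arrb2 at 1.07, which end receptor signalling, and the receptor-sorting gene Gprasp1 at 0.74. Centring on the 3 pan-neuronal markers moves these by -1.77, which takes Arrb2 and Gprasp1 below 0. The inhibitory G protein genes Gnai1, Gnai3 and Gnao1 had negative values of -0.66, -0.38 and -0.33 and were not called. In AP mice none of the 10 was called, with values from -0.33 to 0.44. Of the lipid carriers, Scp2 was called as higher in AV mice at 0.87, 1 of 3 listed genes, where 13.6% of all genes were so called. Pan-neuronal centring takes Scp2 below 0 as well. None of the 3 listed genes of other anandamide synthesis was called. In AP mice Inpp5d, a phosphatase gene of blood and microglial cells placed in that list, had the largest rise of all lists, 1.36, with 104 to 188 in BA and 215 to 504 in AP mice (limma adjusted p = 0.392). Cnr2, the gene of the CB2 receptor, was listed in neither table, and of 10 other receptor genes only Ppard was listed in both.

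**Figure D5:**
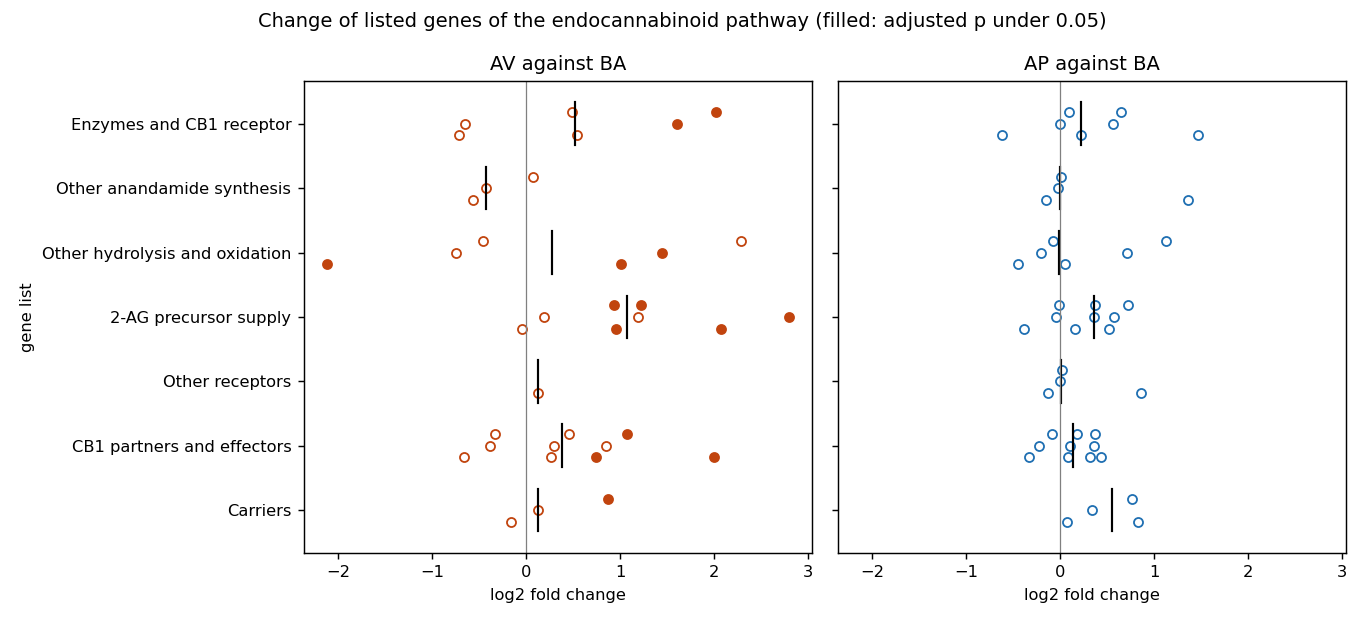
Log2 fold change against BA mice of each listed gene, by gene list, for AV mice (left) and AP mice (right); each point is a gene, filled where its adjusted p is under 0.05, and the vertical bar is the median of the list. In AV mice the precursor supply list has 5 filled points on the right and Lipe is the filled point furthest to the left at -2.12; in AP mice no point is filled.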

How the data were processed

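RNA of YFP-positive amygdala cells of single mice was analysed. The labels name bcl2fastq 2.20, Salmon 1.2 and GRCm38.p6, and the paper's methods name TMM normalization, a low-count filter and ARSyN batch correction. The authors deposited a normalized signal for BA with AV mice and for BA with AP mice, and whether ARSyN was applied to both is not given in the sources used here. AV replicate 2 was not used here.

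Identifiers were matched to GENCODE M21 of GRCm38. Log2(value + 1) of all genes of a table was fitted by group, with no covariate, in limma 3.58.1 (R 4.3.3). Where the plan allowed a count test, the unit did not. The NOISeqBIO statistic of the study was not computed. Values of a mouse summed to 3267967 to 3974274 with AV mice and 4589304 to 5072766 with AP mice. Reads were recovered from steps with a tolerance of 0.01 reads, and Daglb in AP mice 1 and 3 was off by 0.049 and 0.039 reads. Intervals and the floor of 3 reads cover counting error only.

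The 7 genes, the pathway lists and the markers were chosen with earlier results of these data known. Named were all 7 genes, the largest 2 rises and falls over the pathway lists and the 2 most like genes of each member; other pathway and marker genes named were picked after their values were seen. Each mouse counts as a replicate. Alternatives covered the threshold, pseudocounts of 0.5 and 10, minimum means of 10 and 50, scaling, the variance prior, each mouse left out and the replicate number as a block; centring on astrocyte, oligodendrocyte and microglia markers was added after seeing the data. Code was tested on simulated data. Python 3.11.15, numpy 2.4.6, pandas 2.3.3, scipy 1.17.1 and matplotlib 3.10.9 were used. Protein sequences were not used here.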

Additional observations from a re-analysis of the deposited data

How the results depend on the processing

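Of the endocannabinoid genes, Dagla and Mgll were called between AV and BA mice, both as higher. Centring on pan-neuronal or microglia markers called Napepld, Faah, Daglb and Abhd6 instead, all as lower. Centring on oligodendrocyte markers called Dagla, Mgll, Daglb and Abhd6 as higher, and centring on astrocyte markers called Napepld and Faah as lower. Centring on astrocyte, oligodendrocyte and microglia markers was chosen after seeing the data. With any BA mouse left out, Dagla and Mgll were again the genes called. Over all genes, 2934 were called, 1151 at an adjusted p under 0.01, 8335, 5324, 7728 and 8416 with centring on pan-neuronal, astrocyte, oligodendrocyte and microglia markers, and 1521 to 3497 with 1 mouse left out; the share of calls that were higher in AV mice was 45.6% as deposited and 0.756%, 2.84%, 98.7% and 0.891% under these centrings, which move every gene by -1.77, -1.14, 1.65 and -1.75. Signs turned only with such shifts or where a value lay near 0. In the AV comparison these were Daglb (-1.29 pan-neuronal, -0.66 astrocyte, -1.27 microglia), Abhd6 (-1.23, -0.60 and -1.21), Mgll (-0.17 pan-neuronal, -0.15 microglia), and Napepld and Faah (0.99 and 0.94, oligodendrocyte). The 2-AG balance of AV less BA mice, 0.18, was -0.28 with summed values and 0.42 with Dagla against Mgll alone, and 0.0073 to 0.345 with 1 mouse left out.

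In the AP comparison none of the genes was called, and 0 with any mouse left out. Centring on microglia markers, which moves every gene by -1.58, called Napepld, Faah, Mgll and Abhd6 as lower. Over all genes the count of 1 was 2 with a pseudocount of 0.5, a minimum mean of 10 or the offset subtracted, 0 with a pseudocount of 10, a minimum mean of 50 or quantile normalization, 10 with a trended variance prior, 10380 with microglia centring and 0 to 15 with 1 mouse left out. Signs turned for Napepld (-0.33, -0.41 and -1.48 with pan-neuronal, astrocyte and microglia centring, -0.045 to 0.23 with 1 mouse left out, the lowest without BA mouse 3), Mgll (-0.20, -0.29 and -1.36, and -0.14 to 0.46 with 1 mouse left out, the lowest without AP mouse 2), Abhd6 (0.068 with oligodendrocyte centring, -0.11 to 0.14 with 1 mouse left out, positive without BA mouse 2 or AP mouse 3), and, with microglia centring, Dagla (-0.94), Daglb (-1.02) and Cnr1 (-0.12). With the length of the longest transcript, 3 of 7 genes in the AP table and 4 of 6 in the AV table held their rank per kilobase.

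Deviations from the group means of same-numbered mice correlated at 0.020, 0.12 and 0.081 in the AP table. Those of the other pairs of mice there correlated at -0.12 to 0.014. In the AV table same-numbered mice correlated at -0.060 and -0.039, but the deviations of 2 AV mice are mirror images of each other. These values cannot decide whether replicate numbers pair the mice. With the replicate number as a block, 970 genes were called in AV mice and 0 in AP mice, and Dagla and Mgll were among those called, at adjusted p of 0.0378 and 0.0482. Apart from these shifts, causes were not tested. Reads were not counted back for the AV table, which leaves its counting error open.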
